A study of Mus musculus with 6 samples.

Results

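Leukocyte RNA was followed through a tumour cell sort that used the leukocyte antigen CD45. The genes described are 43 of the 52325 in the deposited table. They were chosen by symbol as known markers of leukocytes, with earlier results of these data known. They were 8 pan-leukocyte genes, 2 adaptors shared by myeloid cells, 12 macrophage genes and 5 neutrophil genes. The others were 8 T cell genes, 3 cytotoxic granule genes and 5 genes of B and plasma cells. All 43 were found in the table.

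Cells came from breast tumours of C57BL/6 mice that carried both C3-T and an Elf5-GFP reporter, in which green fluorescent protein marks expression of Elf5, a transcription factor of the luminal mammary lineage. Tumours were dissociated with collagenase and hyaluronidase, labelled for CD45 (leukocytes), CD31 (endothelium) and TER119 (red cells), and then sorted by GFP. The labels do not spell out that CD45-labelled cells were discarded, and they give no age, no driver promoter for C3-T and no count of animals. There were 2 Elf5+ libraries (GFP+) and 4 Elf5- libraries (GFP-), and both groups carried the same alleles and had the same treatment.

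Each title also holds a number and a code, T1 or T2, which the labels do not define. The number in titles such as tb09_4414 is called number A here and that in titles such as tb12_4413 number B. Elf5+ library 1 had number A and Elf5+ library 2 number B, both T2. Elf5- library 1 had number A and T1, library 2 number A and T2, library 3 number B and T1, and library 4 number B and T2. The labels do not say whether the libraries came from separate mice, so the p-values below reflect the spread among these 6 libraries, which may be technical. Elf5 itself had 77.6 and 136.9 CPM in Elf5+ libraries, against 10.7, 6.93, 10.5 and 24.7 CPM in Elf5- libraries, so the groups did not overlap for the gene that defines them (log2 fold change 3.04 ± 0.48 SE, edgeR adjusted p = 0.0165). CPM here are counts relative to each library's total, scaled between libraries with TMM factors.

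CD45, the product of Ptprc, is a transmembrane tyrosine phosphatase carried by nearly all nucleated blood cells, so antibody to it is the usual means of taking leukocytes out of a digested tumour. Mammary tumours hold macrophages, neutrophils and lymphocytes among the cancer cells and fibroblasts. Macrophages contain abundant mRNA for lysozyme and for the C1q chains of complement, T cells for the CD3 chains of the antigen receptor, and B cells for the CD79 chains of theirs.

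Start site sequence is shown for 5 of the genes on which the results turn: Ptprc, which encodes the antigen used in the sort, C1qb, a subunit of complement C1q that is strong in macrophages, and Lck, Cd3e and Cytip, each of which stood apart from its own group. Each run is 250 bases before to 50 after a RefSeq start (GRCm38.p6), 5′ to 3′ on the strand of the gene, and capitals mark AGGAAGT or its reverse complement ACTTCCT, which hold the GGAA core bound by the ETS family of transcription factors. The myeloid factor PU.1 and Elf5 both belong to that family. The 5 windows lie on the minus strand at chr1:138175256-138175555 (Ptprc), chr4:136886151-136886450 (C1qb), chr4:129573592-129573891 (Lck), chr9:45009562-45009861 (Cd3e) and chr2:58160073-58160372 (Cytip).
Ptprc: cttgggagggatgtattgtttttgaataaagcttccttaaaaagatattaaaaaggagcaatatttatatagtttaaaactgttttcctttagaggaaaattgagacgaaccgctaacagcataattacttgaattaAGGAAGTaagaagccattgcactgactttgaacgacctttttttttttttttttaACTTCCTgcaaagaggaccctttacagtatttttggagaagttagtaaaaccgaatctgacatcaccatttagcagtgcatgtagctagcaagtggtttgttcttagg
C1qb: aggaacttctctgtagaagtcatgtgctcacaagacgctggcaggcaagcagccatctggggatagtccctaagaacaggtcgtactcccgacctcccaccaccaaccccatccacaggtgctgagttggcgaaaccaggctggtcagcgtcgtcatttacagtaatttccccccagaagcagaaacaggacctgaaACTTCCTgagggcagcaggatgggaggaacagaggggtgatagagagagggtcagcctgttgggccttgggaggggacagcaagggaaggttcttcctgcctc
Lck: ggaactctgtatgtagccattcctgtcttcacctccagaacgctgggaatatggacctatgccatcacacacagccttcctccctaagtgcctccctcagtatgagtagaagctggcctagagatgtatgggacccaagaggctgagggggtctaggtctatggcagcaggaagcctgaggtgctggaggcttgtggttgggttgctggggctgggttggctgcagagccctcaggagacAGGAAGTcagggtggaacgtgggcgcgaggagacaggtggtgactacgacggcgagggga
Cd3e: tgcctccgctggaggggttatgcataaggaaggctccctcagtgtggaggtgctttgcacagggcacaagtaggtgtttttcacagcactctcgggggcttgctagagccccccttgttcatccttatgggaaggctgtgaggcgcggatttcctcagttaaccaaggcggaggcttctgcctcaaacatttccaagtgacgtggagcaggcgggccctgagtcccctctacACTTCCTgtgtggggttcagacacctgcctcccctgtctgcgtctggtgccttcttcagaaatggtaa
Cytip: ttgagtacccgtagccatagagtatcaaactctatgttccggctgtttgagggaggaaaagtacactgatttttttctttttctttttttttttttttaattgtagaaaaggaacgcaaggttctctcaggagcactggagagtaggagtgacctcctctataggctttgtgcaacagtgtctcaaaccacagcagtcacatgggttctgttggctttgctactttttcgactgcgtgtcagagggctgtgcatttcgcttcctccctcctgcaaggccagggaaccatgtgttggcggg

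The motif occurred at -113 and -58 from the start in the Ptprc window, at -53 in C1qb, at -10 in Lck and at -18 in Cd3e, while these letters were not in the Cytip window. Searched on both strands, it was in 14 of 35 windows of the leukocyte genes (40.0%) and in 3072 of 32851 windows of all genes (9.35%). Counted per gene over any window, it was in 12 of 31 leukocyte genes (38.7%) and in 2886 of 27025 of all genes (10.7%). By group, 5 of 9 macrophage genes with a window held it, as did 3 of 5 T cell genes, 2 of 6 pan-leukocyte genes and 0 of 5 neutrophil genes. It was in 0 of 1 shared adaptor, 1 of 3 cytotoxic granule genes and 1 of 2 genes of B and plasma cells. No window was at hand for 12 of the 43 genes. The shorter core GGAA was in 96.0% of all windows. These 7 letters were chosen after the sequences had been seen, and a match is a description of the letters only.

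Leukocyte mRNA was present in every library, at levels that differed widely between genes. Per length of exon, the highest median over the 6 libraries was that of Lyz2 (144 TPM), followed by C1qa (86.0 TPM), C1qb (56.9 TPM), C1qc (29.7 TPM), Cd68 (26.0 TPM) and Tyrobp (24.0 TPM). Ptprc stood at a median of 0.951 TPM, against 794 TPM for the epithelial adhesion gene Epcam, and 15 of the 43 genes had a median under 1 TPM. TPM were computed here over all annotated exon bases, which understates genes with many alternative exons. Ptprc had 18313 such bases, so its TPM may be understated.

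Between the sorts, no leukocyte gene passed the test. Of the 43 genes, 37 had enough counts to be tested and 0 were called at an edgeR adjusted p below 0.05, where 4.37% of all 20684 genes tested were (0.585% higher and 3.79% lower in Elf5+). At an unadjusted p below 0.05 there were 2 of 37, Lck and Cd3e, against 16.9% of all genes. DESeq2 called 1 of 37, Cd3e, against 10.6% of all genes, and edgeR with no filter on low counts called 1 of 43, again Cd3e, against 4.53%. The log2 fold change was negative for 25 of the 37 and positive for 12, where it was negative for 9656 of all 20684 genes. The median was -0.22 beside 0.05 over all genes, but without Elf5- library 1 the median of the leukocyte genes was 0.12. A p that misses the threshold does not show that levels were equal. In bulk RNA, fewer cells of a type and less RNA per cell cannot be told apart.

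**Figure D1:**
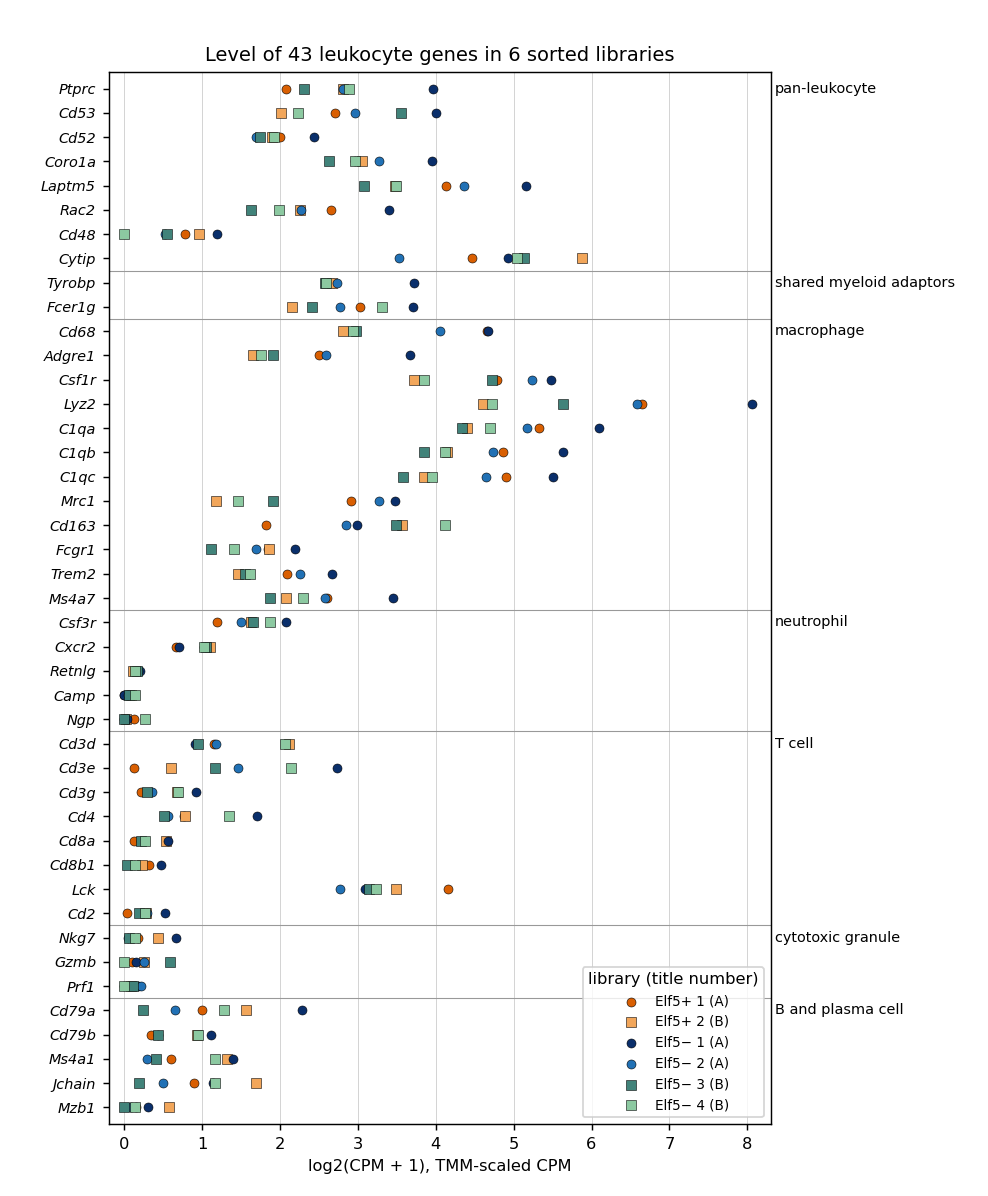
Level of each of the 43 leukocyte genes (rows, grouped by cell type) in the 6 libraries, as log2(CPM + 1) on the x axis; circles are libraries with title number A and squares number B, orange for Elf5+ and blue or green for Elf5-. Most genes are highest in Elf5- library 1 (dark blue circle), and most macrophage genes have all 3 circles to the right of all 3 squares, with Cd163 the other way round.

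The summed level of the 43 genes was 370.0 and 242 CPM in Elf5+ libraries 1 and 2, against 721, 347, 238 and 235 CPM in Elf5- libraries 1 to 4. Elf5- library 1 was far above the rest, and the Elf5+ values lay within the range of the other 3 Elf5- libraries or just above it. The mean was 306 ± 90.7 CPM in Elf5+ (SD, n = 2) and 385 ± 230.0 CPM in Elf5- (SD, n = 4), and the difference in mean log2 was -0.20, or 0.16 without Elf5- library 1. Within T2 the sums of both sorts were close, with an Elf5+ to Elf5- ratio of 1.07 for number A and 1.03 for number B.

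Elf5- library 1, which has number A and T1, held the highest value of 30 of the 37 tested genes, against 15.9% of all genes tested. Its elevation spanned macrophage genes (11 of 12), adaptors, pan-leukocyte genes and lymphocyte genes. No member was called between the sorts without that library either (0 of 33 tested, against 1.35% of 20265 genes).

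Other cell types differed between the same libraries by far more. The summed level of 14 fibroblast markers was 1835 and 2037 CPM in Elf5+ libraries, against 26109, 18644, 53463 and 21026 CPM in Elf5- libraries. By the test, 12 of the 14 were lower in Elf5+, against 3.79% of all genes. The summed level of 18 epithelial markers was 8306 and 6091 CPM in Elf5+ libraries, against 2073, 2803, 3599 and 2441 CPM in Elf5- libraries. Of these 18, 10 were higher in Elf5+ by the test, against 0.585% of all genes. Within T2 the Elf5+ to Elf5- ratio was 0.0984 (number A) and 0.0969 (number B) for fibroblast markers, and 2.96 (number A) and 2.50 (number B) for epithelial markers. By group, the T2 ratio of Elf5+ to Elf5- was 1.03 (number A) and 0.880 (number B) for macrophage genes. It was 1.07 (number A) and 1.42 (number B) for pan-leukocyte genes, and 1.85 (number A) and 1.06 (number B) for lymphoid genes. Without Cytip the pan-leukocyte ratio was 0.863 (number A) and 1.03 (number B). Without Lck the lymphoid ratio was 0.876 (number A) and 0.959 (number B). Whether the change in the other cell types had a part in any leukocyte value was not tested.

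With libraries scaled to the epithelial markers in place of all genes, the median over all genes stood at -1.37 (log2) and 16 of the 37 leukocyte genes were called lower in Elf5+, against 48.4% of all genes. The median of the leukocyte genes under that scaling was -1.82.

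Markers of the other 2 antibodies followed different courses. The summed level of 12 endothelial markers was 89.3 and 47.9 CPM in Elf5+ libraries, against 220.3, 156, 156 and 92.8 CPM in Elf5- libraries. Of the 12, 3 (Eng, Kdr and Tek) were lower in Elf5+ and 0 higher, against 3.79% and 0.585% of all genes. Fibroblast markers were lower in Elf5+ too, and their part in the endothelial values was not tested. Of 9 erythroid markers, 6 were tested and 0 passed, with a summed level of 6.61 and 12.6 CPM in Elf5+ and from 3.01 to 19.6 CPM in Elf5-.

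**Figure D2:**
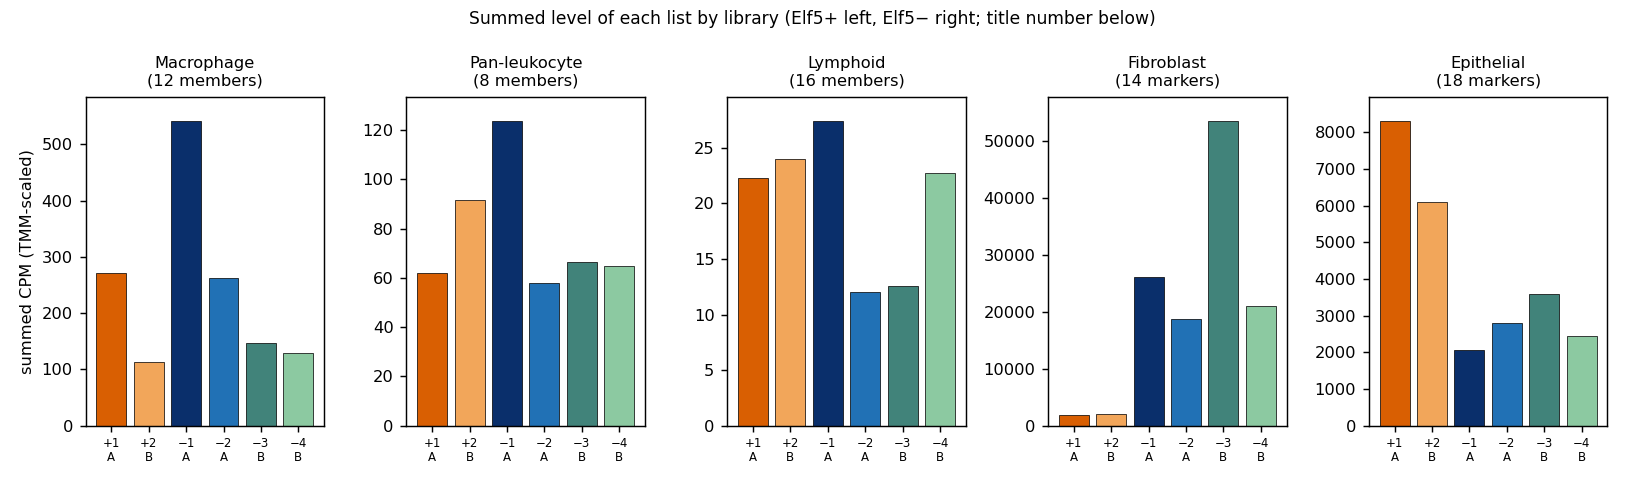
Summed TMM-scaled CPM (y axis, a scale of its own in each panel, starting at 0) of 3 leukocyte groups and of fibroblast and epithelial markers in each library, Elf5+ on the left and Elf5- on the right, with the title number under each bar. Macrophage sums are close in Elf5+ and Elf5- libraries of the same number and T code (271 and 263 CPM for number A, T2; 114 and 129 CPM for number B, T2), while fibroblast sums are 1835 and 2037 CPM in Elf5+ and at least 18644 CPM in Elf5-.

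Among the pan-leukocyte genes, Ptprc had 3.24 and 6.02 CPM in Elf5+ libraries, against 14.6, 5.99, 3.96 and 6.37 CPM in Elf5- libraries. Only Elf5- library 1 stood above the others, and the groups overlapped. The log2 fold change was -0.74 ± 0.59 SE with an edgeR adjusted p of 0.619. The other genes of the group with a negative fold change were Cd53, a tetraspanin of leukocyte membranes (-1.09), Laptm5, a lysosomal protein of blood cells (-0.44), Coro1a, an actin-binding coronin (-0.32), Cd52, a small lipid-anchored surface protein (-0.05), and Rac2, a small GTPase of blood cells (-0.03). None of these 5 had an edgeR adjusted p under 0.429. Cd52 shares 14.5% of its exon bases with Crybg2 on the other strand, and whether counting used strand is not given in the sources used here.

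Cd48, a SLAM family ligand of Cd2, was low in every library and below detection in Elf5- library 4. Its values were 0.719 and 0.948 CPM in Elf5+ libraries, against 1.29, 0.441, 0.468 and 0 CPM in Elf5- libraries. The 0 in Elf5- library 4, the shallowest, allows up to 3 counts or 0.308 CPM, for counting error only.

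Cytip departed from this pattern. It encodes a scaffold protein of lymphocytes and dendritic cells that binds cytohesins and limits adhesion through integrins. It had 21.0 and 57.7 CPM in Elf5+ libraries, against 29.5, 10.5, 34.1 and 31.9 CPM in Elf5- libraries. The highest value was Elf5+ library 2 and the lowest Elf5- library 2, so the groups overlapped (log2 fold change 0.57 ± 0.53 SE, edgeR adjusted p = 0.676). Per exon length, the ratio of Cytip to Ptprc was 17.7 and 26.1 in Elf5+ libraries, against 5.47, 4.77, 23.4 and 13.6 in Elf5- libraries. The ratio was thus not the same across the libraries. With T2 libraries alone and the title number as a block, Cytip was called higher in Elf5+ (log2 fold change 0.93, edgeR adjusted p = 0.0340), where 9.88% of all genes were called; its adjusted p ranged from 0.0340 to 0.902 over 17 alternatives, and the fold change ran from -0.75, when scaled to epithelial markers, to 1.13.

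Tyrobp and Fcer1g are signalling adaptors that pair with activating receptors on myeloid and natural killer cells. Tyrobp had 5.42 and 5.38 CPM in Elf5+ libraries, against 12.2, 5.64, 4.96 and 5.04 CPM in Elf5- libraries. Fcer1g had 7.12 and 3.44 CPM in Elf5+ libraries, against 12.02, 5.80, 4.33 and 8.94 CPM in Elf5- libraries. Apart from Elf5- library 1, the Tyrobp values were almost level over both sorts. Neither passed the test, with log2 fold changes of -0.37 ± 0.48 SE for Tyrobp (edgeR adjusted p = 0.778) and -0.56 ± 0.53 SE for Fcer1g (edgeR adjusted p = 0.687).

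The 12 macrophage genes had the highest summed level of the 7 groups in each library. It was 271 and 114 CPM in Elf5+ libraries, against 542, 263, 146 and 129 CPM in Elf5- libraries. Both groups held high and low libraries, and their ranges overlapped. The mean was 192 ± 111 CPM in Elf5+ (SD, n = 2) and 270 ± 191 CPM in Elf5- (SD, n = 4), with a difference in mean log2 of -0.37, or 0.05 without Elf5- library 1 and -1.0 without Elf5+ library 1. Of the 12 genes, 10 had a negative log2 fold change, against 9656 of all 20684 genes, and 0 were called, against 4.37%.

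Lyz2, the lysozyme of macrophages and granulocytes, was the most abundant. It had 99.5 and 23.4 CPM in Elf5+ libraries, against 265.6, 95.04, 48.8 and 25.4 CPM in Elf5- libraries. The order of the libraries followed the title number, and the groups of the sort overlapped (log2 fold change -0.82 ± 0.94 SE, edgeR adjusted p = 0.746). Lyz1, a near-identical neighbour of Lyz2 on chromosome 10, was estimated at 0.315 and 0.0387 CPM in Elf5+ and at most 4.38 CPM in Elf5-, and the share of reads that the authors' estimation gave to each copy is uncertain.

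C1qa, C1qb and C1qc encode the A, B and C chains of C1q, the part of complement that recognises antibody. They lie side by side on the minus strand of chromosome 4, between positions 136880129 and 136898803 (GRCm38). C1qa had 39.0 and 20.2 CPM in Elf5+ libraries, against 67.3, 35.0, 19.2 and 24.9 CPM in Elf5- libraries. C1qb had 28.0 and 16.7 CPM in Elf5+ libraries, against 48.7, 25.5, 13.5 and 16.3 CPM in Elf5- libraries. C1qc had 28.9 and 13.4 CPM in Elf5+ libraries, against 44.3, 24.1, 10.9 and 14.5 CPM in Elf5- libraries. The 3 chains ranked the libraries almost identically, and none passed the test between sorts (log2 fold changes -0.31, -0.22 and -0.15, edgeR adjusted p of at least 0.836).

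The chains kept close to 1 ratio. Per exon length, C1qa over C1qb was 1.46 and 1.26 in Elf5+ libraries, against 1.45, 1.43, 1.495 and 1.59 in Elf5- libraries. C1qc over C1qb ran from 0.453 to 0.581 over all 6. The sum of the 3 chains meanwhile covered a 4.19-fold range, with 198 and 125 TPM in Elf5+ libraries, against 397, 196, 94.8 and 150.3 TPM in Elf5- libraries. Relative to that sum, Ms4a7, a membrane protein of macrophages, and Trem2, a lipid receptor that signals through Tyrobp, also held steady, with 1.29-fold and 1.35-fold ranges.

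Other macrophage genes varied more against C1q. The ratio of Lyz2 to the C1q sum was 0.967 and 0.427 in Elf5+ libraries, against 1.52, 1.04, 1.01 and 0.415 in Elf5- libraries. That of Cd163, the scavenger receptor for haemoglobin and haptoglobin, was 0.0060 and 0.0477 in Elf5+ libraries, against 0.0096, 0.0163, 0.0515 and 0.0648 in Elf5- libraries, a 10.9-fold range. All 3 libraries of number B were above all 3 of number A for Cd163, whichever the sort. These ratios are descriptions of 6 libraries and carry no test.

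**Figure D3:**
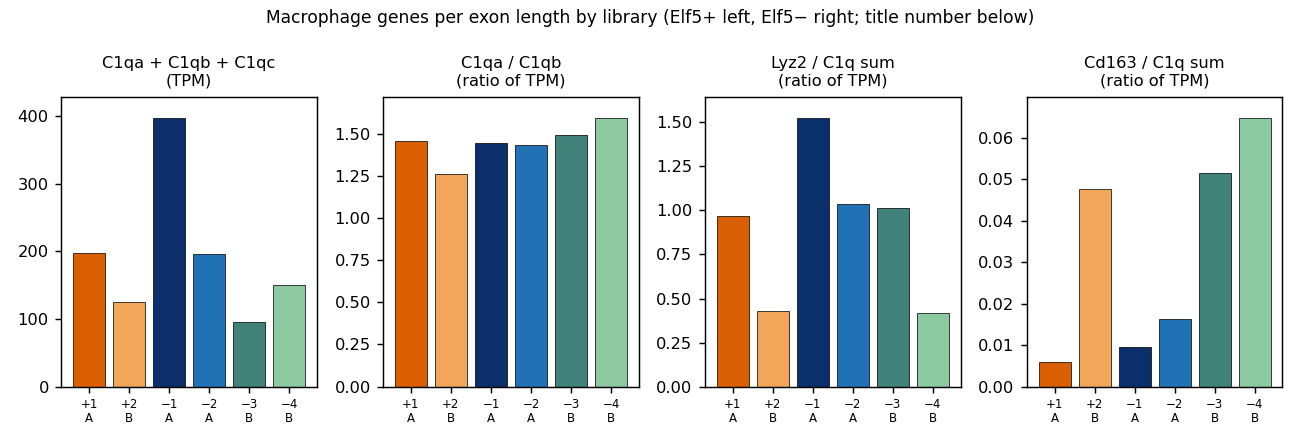
Summed C1q level per exon length (first panel, TPM) and 3 ratios of TPM (other panels) in each library, Elf5+ on the left and Elf5- on the right, with the title number under each bar and every y axis starting at 0. C1qa over C1qb stays between 1.26 and 1.59 while the C1q sum covers a 4.19-fold range; Cd163 relative to C1q is at most 0.0163 in number A and at least 0.0477 in number B.

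The split by title number was wider in macrophage genes than the split by sort. It was compared after the values had been seen, in a fit with both terms, and of the 37 genes 0 were called and 13 had an unadjusted p below 0.05, against 0.00483% and 14.6% of all genes. All 3 libraries of number A lay above all 3 of number B for 13 of the 37 (8.83% of all genes) and below them for 2, Cytip and Cd163 (8.12% of all genes). Of the 12 macrophage genes 10 were above, Cd163 was below and only Fcgr1, the high-affinity receptor for IgG, overlapped. The median log2 fold change of number A over B was 1.13 for macrophage genes and 0.65 for all leukocyte genes tested, beside 0.02 for all genes. The median of all leukocyte genes tested was 0.08 without Elf5- library 1, 0.10 in T2 libraries alone and 1.0 without Elf5+ library 1.

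The widest of these were Lyz2 (log2 fold change 2.21 ± 0.43 SE), Mrc1, the mannose receptor (2.15 ± 0.35 SE), and Cd68, a lysosomal glycoprotein (1.72 ± 0.28 SE), each with an edgeR adjusted p of 0.218. Mrc1 had 6.52, 10.1 and 8.63 CPM in the 3 libraries of number A, against 1.26, 2.74 and 1.75 CPM in those of number B. Cd68 had 24.3, 24.5 and 15.6 CPM in number A, against 6.00, 6.87 and 6.68 CPM in number B. Cd163 had 2.54, 6.96 and 6.21 CPM in number A, against 10.9, 10.3 and 16.4 CPM in number B (log2 fold change -1.37 ± 0.36 SE, edgeR adjusted p = 0.246). The first value of each number is its Elf5+ library, which was below both Elf5- libraries of its number for Mrc1 in number A and B, for Cd68 in number B and for Cd163 in number A.

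Adgre1, the F4/80 antigen, Csf1r, the receptor for macrophage colony-stimulating factor, Trem2 and Ms4a7 followed the same order, with log2 fold changes of number A over B from 1.02 to 1.51. Csf1r shares 15.1% of its exon bases with Hmgxb3 on the other strand. DESeq2 called 11 of the 37 leukocyte genes between the numbers, Laptm5, Cd68, Adgre1, Csf1r, Lyz2, C1qa, C1qb, C1qc, Mrc1, Cd163 and Trem2, against 4.77% of all genes. EdgeR called 11 of 43 with no low-count filter, against 4.29% of all genes, and 7 of 33 in T2 libraries alone, against 16.9%. In each of 6 fits that left out 1 library, edgeR called 0 leukocyte genes, against at most 0.299% of all genes.

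For the 12 endothelial markers the median log2 fold change of number A over B was 1.03 and 0 were called. All 3 libraries of number A were above number B for 2 of the 12 (8.83% of all genes) and below for 1 (8.12% of all genes). Fibroblast markers had a median of -0.10. What the number stands for is not in the labels, and the part of endothelial cells in the macrophage values was not tested. Since the number may mark a mouse, a tumour or a day, these cannot be told apart.

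**Figure D4:**
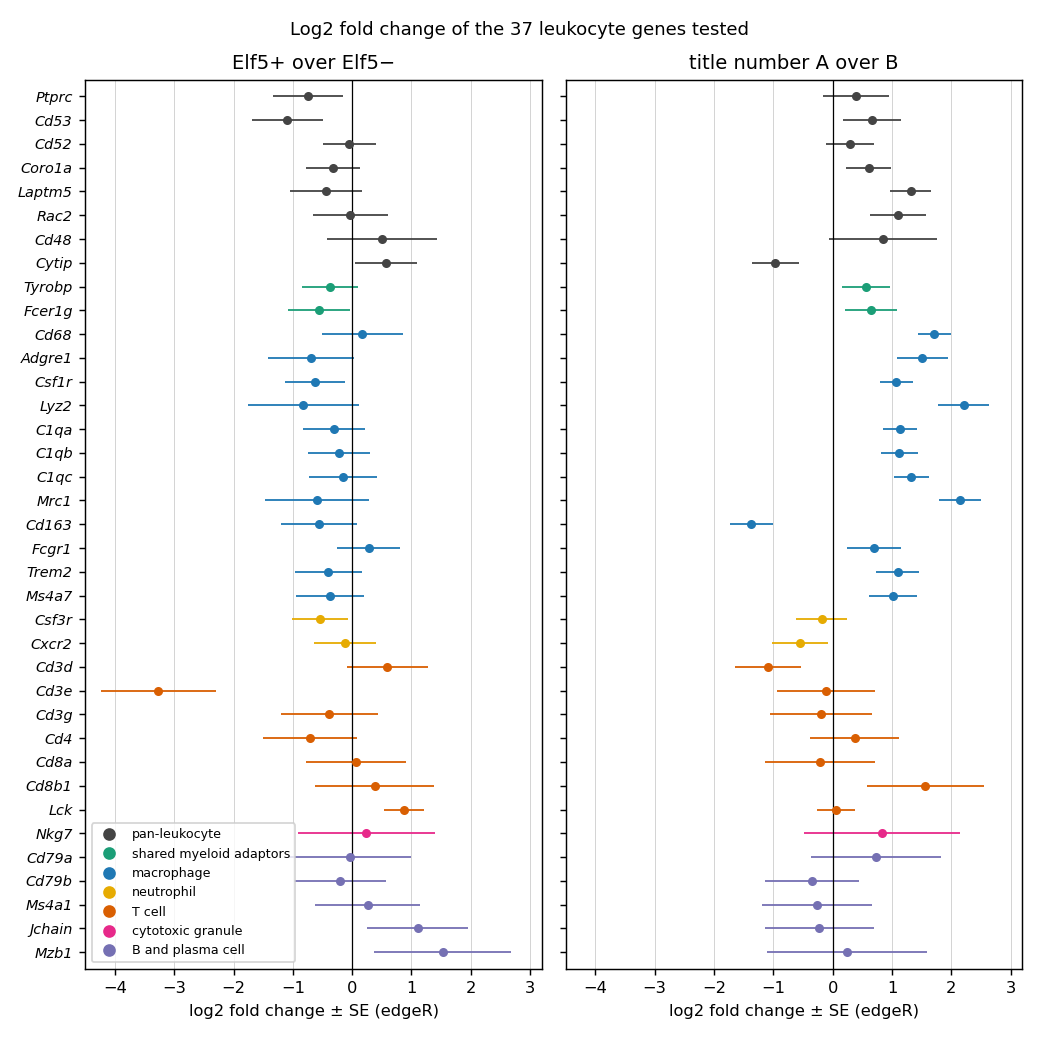
Log2 fold change ± SE (edgeR, 6 libraries) of the 37 leukocyte genes tested, Elf5+ over Elf5- in the left panel and title number A over B in the right, coloured by cell type. In the left panel most SE bars of macrophage genes cross or come near 0 (the vertical line), and in the right panel 11 of 12 macrophage genes lie above 0, with Cd163 at -1.37.

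Libraries were also compared pair by pair, from the same CPM values, so the order of the pairs is not separate evidence. Over the 12 macrophage genes, the median absolute difference in log2(CPM + 1) was smallest between Elf5+ library 2 and Elf5- library 4 (0.146), then between Elf5+ library 1 and Elf5- library 2 (0.162). These are the pairs that share both number and T code. The 6 pairs of libraries of the same number were the 6 closest of 15, up to 0.738, and the 9 pairs of different number ran from 0.768 to 1.67. Over all genes tested, the same 2 pairs ranked 2 and 5, at 0.278 and 0.292, and the closest was Elf5- libraries 2 and 3, at 0.271. The distances are descriptions with no test.

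**Figure D5:**
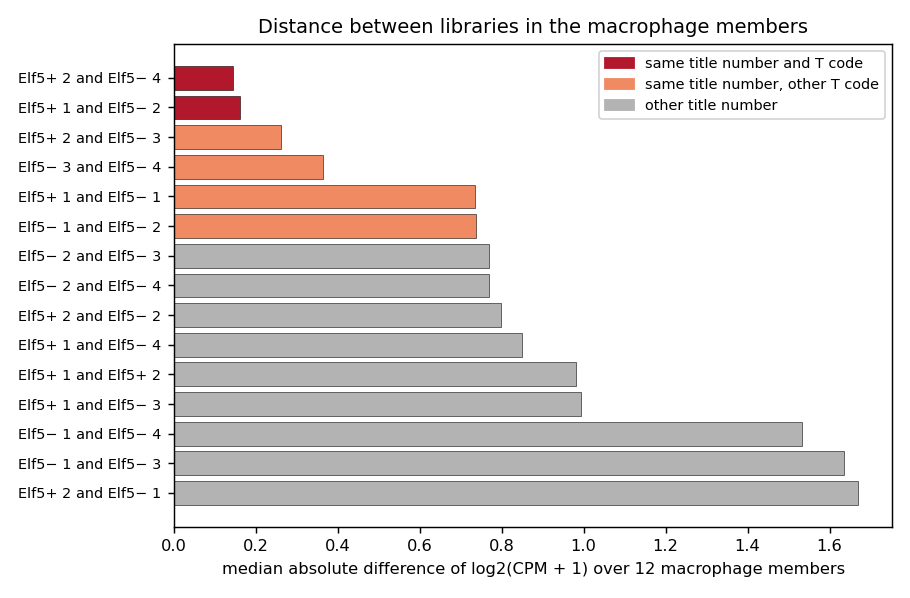
Median absolute difference in log2(CPM + 1) over the 12 macrophage genes for each of the 15 pairs of libraries, ordered from closest to farthest, with red bars for the same title number and T code, orange for the same number alone and grey for different numbers. The Elf5+ and Elf5- libraries of the same number and T code are the closest at 0.146 and 0.162, and all pairs of the same number lie at or under 0.738.

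Neutrophil genes were low, and Retnlg, Camp and Ngp were close to the limit of detection. Csf3r, the receptor for granulocyte colony-stimulating factor, had 1.28 and 2.09 CPM in Elf5+ libraries, against 3.23, 1.83, 2.15 and 2.67 CPM in Elf5- libraries. Cxcr2, the chemokine receptor that draws neutrophils into tissue, had 0.584 and 1.14 CPM in Elf5+ libraries, against 0.633, 1.04, 1.077 and 1.03 CPM in Elf5- libraries. Both overlapped between the sorts and did not pass the test (edgeR adjusted p of 0.650 for Csf3r and 0.949 for Cxcr2). Retnlg, Camp and Ngp, which encode a resistin-like protein and 2 proteins of secondary granules, had at most 7 counts in any library and could not be tested.

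Values of the sorts did not overlap for 2 of the 37 genes, against 25.7% of all genes. Both were T cell genes, Cd3e and Lck, singled out after their values were seen. The CD3 delta, epsilon and gamma chains join the T cell receptor in a signalling complex, and Lck is the kinase that phosphorylates them. Cd3e had 0.0899 and 0.522 CPM in Elf5+ libraries, against 5.63, 1.76, 1.24 and 3.39 CPM in Elf5- libraries. Behind these lay 4 and 27 counts in Elf5+, against 258, 56, 61 and 33 counts in Elf5-. Both Elf5+ libraries were below all 4 Elf5- libraries, which held for no other of the 37 genes and for 14.8% of all genes. The log2 fold change was -3.27 ± 0.97 SE with an edgeR adjusted p of 0.115. It was -3.28 with an adjusted p of 0.0014 by DESeq2, and -3.32 with an edgeR adjusted p of 0.0294 when no low-count filter was used. Over 17 alternatives the fold change was negative in all, the adjusted p ran from 0.0014 to 0.412, and 4 passed.

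The other CD3 chains did not share this. Cd3d had 1.21 and 3.35 CPM in Elf5+ libraries, against 0.873, 1.26, 0.935 and 3.19 CPM in Elf5- libraries. Cd3g had 0.157 and 0.600 CPM in Elf5+ libraries, against 0.894, 0.284, 0.224 and 0.617 CPM in Elf5- libraries. Both overlapped between sorts, with log2 fold changes of 0.59 ± 0.69 SE for Cd3d and -0.39 ± 0.82 SE for Cd3g (edgeR adjusted p of 0.751 for Cd3d and 0.876 for Cd3g). Per exon length, Cd3e over Cd3d was 0.0330 and 0.0694 in Elf5+ libraries, against 2.87, 0.623, 0.590 and 0.474 in Elf5- libraries. Exons of Cd3e share 3.31% of their bases with an antisense gene, Gm48719.

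Lck went the other way. It had 16.9 and 10.3 CPM in Elf5+ libraries, against 7.55, 5.83, 7.83 and 8.43 CPM in Elf5- libraries. Both Elf5+ libraries were above all Elf5- libraries, which held for no other of the 37 genes and for 10.8% of all genes. The log2 fold change was 0.87 ± 0.33 SE and did not pass (edgeR adjusted p = 0.225), and when scaled to epithelial markers it was -0.61. Relative to the 3 CD3 genes per exon length, Lck was at 7.79 and 1.63 in Elf5+ libraries, against 1.21, 1.64, 3.01 and 1.04 in Elf5- libraries. Elf5+ library 1 alone stood apart in that ratio.

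The coreceptor genes Cd4, Cd8a and Cd8b1 and the adhesion gene Cd2 were at most 2.25 CPM in any library. Cd4 had 0.697 and 0.716 CPM in Elf5+ libraries, against 2.25, 0.472, 0.427 and 1.54 CPM in Elf5- libraries. Cd4, Cd8a and Cd8b1 had edgeR adjusted p-values of at least 0.738, and Cd2 had too few counts to be tested.

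Cytotoxic granule genes were scarce. Nkg7, a granule membrane protein, had 0.135 and 0.348 CPM in Elf5+ libraries, against 0.589, 0.0315, 0.0407 and 0.103 CPM in Elf5- libraries. The groups overlapped, and the log2 fold change was 0.24 ± 1.16 SE (edgeR adjusted p = 0.954). Gzmb, the protease granzyme B, and Prf1, the pore-forming perforin, were at most 0.508 CPM and were not tested.

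Genes of B and plasma cells varied mostly by library. Cd79a, a signalling chain of the B cell receptor, had 0.989 and 1.95 CPM in Elf5+ libraries, against 3.86, 0.567, 0.183 and 1.44 CPM in Elf5- libraries. Jchain, which links chains of IgM and IgA in plasma cells, had 0.854 and 2.24 CPM in Elf5+ libraries, against 1.20, 0.410, 0.142 and 1.23 CPM in Elf5- libraries. High and low libraries were found in both sorts, and neither gene passed the test (edgeR adjusted p of 0.990 for Cd79a and 0.605 for Jchain). Cd79b, its partner chain, and Ms4a1, which encodes CD20, had adjusted p-values of 0.939 and 0.931 by edgeR. Mzb1, a chaperone of antibody secretion, was at most 0.484 CPM, and 57.2% of its exon bases are shared with another annotated gene, so its value is uncertain.

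The sign of the difference in the lymphoid sum hung on Lck. For the 16 lymphoid genes it was 22.3 and 24.0 CPM in Elf5+ libraries, against 27.4, 12.1, 12.6 and 22.7 CPM in Elf5- libraries. The difference in mean log2 was 0.40, and without Lck it was -0.15. Both sums overlapped between the sorts.

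Leukocyte genes outside the 43 were read from further lists. Of 15 other genes of haematopoietic signalling, 1 was lower in Elf5+ and 0 higher, where 3.79% of all genes were lower. It was Lsp1, an actin-binding protein of leukocytes, with 14.1 and 8.94 CPM in Elf5+ libraries, against 113.9, 97.6, 221 and 124.7 CPM in Elf5- libraries (log2 fold change -3.59 ± 0.45 SE, edgeR adjusted p = 0.0114). All Elf5+ values were below all Elf5- values, with no library between. Of 19 other macrophage and monocyte genes tested, 1 was lower and 0 higher, against the same 3.79%, so neither count stands far from that of all genes. It was Gpnmb, a lysosomal glycoprotein, with 0.854 and 0.445 CPM in Elf5+ libraries, against 31.5, 8.63, 30.4 and 6.58 CPM in Elf5- libraries (log2 fold change -4.90 ± 0.90 SE, edgeR adjusted p = 0.0267). The log2 fold change was negative for 13 of the 15 signalling genes, with a median of -0.53. It was negative for 15 of the 19 macrophage and monocyte genes, with a median of -0.52. Over all genes tested it was negative for 9656 of 20684, with a median of 0.05. These signs and medians carry no test. The fibroblast markers given above were lower in Elf5+ too, and their part in Lsp1, Gpnmb and these medians was not tested.

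Of 6 other neutrophil genes tested, 1 was higher in Elf5+ and 0 lower, where 0.585% of all genes were higher. It was Lcn2, which encodes the iron-binding protein lipocalin 2 made by neutrophils and by epithelia. It had 2216 and 1524 CPM in Elf5+ libraries, against 339, 325, 741 and 420.4 CPM in Elf5- libraries (log2 fold change 2.04 ± 0.39 SE, edgeR adjusted p = 0.0294). Of the 8 genes in that list, 2, Lcn2 among them, had both Elf5+ libraries above all Elf5- libraries, against 10.8% of all genes tested. For 1 both were below, against 14.8%. Of the 5 neutrophil genes given above, Csf3r and Cxcr2 overlapped between the sorts, and Retnlg, Camp and Ngp were near 0 in every library. Epithelial markers were higher in the Elf5+ libraries, and their part in Lcn2 was not tested.

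The remaining lists held no call in either direction, where 4.37% of all genes were called. They were 8 dendritic cell genes, 6 mast cell genes and 6 genes of MHC class II presentation. With them were tested 13 other genes of T and natural killer cells and 10 other B cell genes. Among them Trac, the constant segment of the T cell receptor alpha chain, had 0.472 and 0.658 CPM in Elf5+ libraries, against 1.72, 2.14, 1.63 and 1.13 CPM in Elf5- libraries. Trbc2, that of the beta chain, had 1.35 and 0.986 CPM in Elf5+ libraries, against 3.56, 1.73, 5.73 and 3.60 CPM in Elf5- libraries. Both had all Elf5+ values below all Elf5- values, as Cd3e had, and neither passed the test, with log2 fold changes of -1.56 ± 0.51 SE for Trac (edgeR adjusted p = 0.155) and -1.65 ± 0.58 SE for Trbc2 (edgeR adjusted p = 0.186). Of the 16 listed T and natural killer cell genes, 3 had both Elf5+ libraries below all Elf5- libraries, against 14.8% of all genes tested. Over the 13 tested, 12 had a negative log2 fold change, against 9656 of all 20684 genes, and the median was -0.74. The summed level of the 16 was 5.55 and 6.23 CPM in Elf5+ libraries, against 13.6, 9.42, 12.6 and 12.2 CPM in Elf5- libraries. Those sums did not overlap and carry no test. Within T2 their Elf5+ to Elf5- ratio was 0.589 (number A) and 0.509 (number B).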

How the data were processed

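RNA was sequenced from 2 Elf5+ and 4 Elf5- sorted libraries, grouped by the labels' genotype field. The deposited table holds estimated counts (expected counts) per Ensembl gene, made by the authors with Salmon on GRCm38.p5, as the submitters' processing notes state. Neither the version of Salmon nor the annotation release is given in the sources used here. The values are whole numbers, so rounding changed none. Salmon divides reads among similar transcripts by a model. Library totals lay between 9106660 and 53694884 counts, and low genes are least precise in the smallest.

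Symbols were matched for 52220 IDs, and coordinates and exon lengths came from GENCODE M21 (GRCm38). In R 4.3.3, edgeR 4.0.16 was used with filterByExpr (20684 genes kept), TMM factors, the quasi-likelihood test and Benjamini-Hochberg adjusted p below 0.05 over all genes tested. Standard errors are the log2 fold change over the root of F. CPM and TPM were computed from the counts, and sums over lists carry no test. The test was tested on simulated data. The common biological coefficient of variation was 0.446.

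Members and lists were chosen with earlier results of these data known. All 43 members are described. Values in every library are given for Ptprc, the most counted members of each group and members that stand apart from their own group, and for at most 4 genes of smallest p of each further list. Alternatives were RLE, upper-quartile and no factors, scaling to epithelial markers, 2 other low-count filters, robust dispersions, DESeq2 1.42.0, a block for the title number, T2 libraries alone, sums without their most abundant member and each library left out. The comparison of title numbers and its alternatives were added after seeing the data.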

Additional observations from a re-analysis of the deposited data

Results flagged for a closer look

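Among the 4 Elf5- libraries, 6 of 47 measures checked had 1 library set apart from the other 3, by the gap to its nearest neighbour over the whole range (limit 0.829 for 4 libraries). Chance gives this in about 1 of 20 groups, and the measures share libraries. Elf5- library 1 was the high one for Tyrobp (gap over range 0.907), Nkg7 (0.872), Cd8a (0.851) and the summed level of the pan-leukocyte genes (0.873), and the low one for Cxcr2 (0.888). Elf5- library 4 was the high one for Cd3d (0.833). With 2 Elf5+ libraries, no such check was possible in that group.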

How the results depend on the processing

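The shallowest library holds 9106660 counts, so low genes are uncertain there, and 2 Elf5+ libraries set the spread of that group. The labels do not say that libraries of one number are paired. Deviations from the group means of all genes correlated at 0.58 (number A) and 0.67 (number B) between the T2 libraries of both sorts, and at 0.14 (number A) and -0.04 (number B) between the Elf5+ library and the Elf5- T1 library. With 2 Elf5+ libraries, their deviations are mirror images, so the values for number A and number B are not independent. Higher and lower calls over all genes were 121 and 783. They were 14 and 9995 when scaled to epithelial markers, 273 and 1331 with no low-count filter, 436 and 1763 by DESeq2, 252 and 1012 with the title number as a replicate block, 0 and 0 in T2 libraries with no block (1932 at an unadjusted p below 0.05), and 549 and 1367 in T2 libraries with the block. With a library left out they ran from 25 to 133 higher and from 197 to 811 lower. Leukocyte genes called between the sorts were 0 throughout, except 16 when scaled to epithelial markers, 1 with no low-count filter, 1 by DESeq2 and 2 (Cytip and Cd3e) in T2 libraries with the block; the block over 6 libraries changed no call of a leukocyte gene. Between title numbers they were 11 with no low-count filter, 11 by DESeq2 and 7 in T2 libraries. Differences in summed level between sorts, in mean log2, became -1.61 for all leukocyte genes, -1.79 for myeloid, -1.01 for lymphoid and -1.79 for macrophage genes when scaled to epithelial markers, and that of lymphoid genes became -0.15 without Lck. With a library left out they ran, in log2, as all leukocytes -0.51 to 0.16, myeloid -0.97 to 0.21, lymphoid 0.22 to 0.62, macrophage -1.0 to 0.25. The cause of the turns of sign below was not tested. Log2 fold changes turned sign when scaled to epithelial markers for Cd48 -0.98, Cytip -0.75, Cd68 -1.49, Fcgr1 -1.24, Cd3d -0.76, Cd8a -1.32, Cd8b1 -1.22, Lck -0.61, Nkg7 -1.28, Ms4a1 -1.22 and Jchain -0.38. They did with the block for Rac2 0.14, Cd8a -0.029 and Cd79a 0.26, in T2 libraries with no block for Cd52 0.20, Rac2 0.42, Tyrobp 0.022, Lyz2 0.028, C1qb 0.10, C1qc 0.13 and Cd79a 0.61, and in T2 libraries with the block for Cd52 0.21, Rac2 0.42, Tyrobp 0.022, C1qb 0.091, C1qc 0.089 and Cd79a 0.63. Leaving out a library gave ranges that held a turn of sign for Cd52 -0.16 to 0.23, Coro1a -0.51 to 0.042, Laptm5 -0.83 to 0.10, Rac2 -0.30 to 0.62, Cytip -0.33 to 1.13, Tyrobp -0.51 to 0.054, Cd68 -1.16 to 0.86, Adgre1 -1.36 to 0.0052, Lyz2 -2.22 to 0.12, C1qa -0.86 to 0.17, C1qb -0.64 to 0.28, C1qc -0.81 to 0.36, Mrc1 -2.22 to 0.16, Cd163 -1.96 to 0.14, Ms4a7 -0.74 to 0.12, Cxcr2 -0.68 to 0.28, Cd3d -0.31 to 1.18, Cd3g -1.64 to 0.27, Cd8a -1.48 to 0.78, Cd8b1 -0.039 to 0.63, Nkg7 -0.58 to 0.76, Cd79a -0.61 to 1.14, Cd79b -1.32 to 0.42 and Ms4a1 -0.68 to 0.92. The other normalization factors, the stricter low-count filter, DESeq2 and robust dispersions turned no sign.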
